A study of Homo sapiens with 2 samples.

Results

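Vitamin A (retinol) travels in blood on a carrier protein, is oxidised in cells to retinaldehyde and then to retinoic acid, and acts as retinoic acid through nuclear receptors that pair RAR with RXR proteins. Enzymes of the CYP26 family, cytochromes P450, hydroxylate retinoic acid and so end its action. Hepatocytes make the blood carrier and hold much of the body's retinol-handling machinery, and CYP26A1 is the classical gene that retinoic acid itself switches on, through receptor binding sites in its promoter.

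The genes described here are 9 genes of this pathway, found by symbol among the 25343 gene entries of each library: RBP4, STRA6, CRABP2, RDH10, RDH11, DHRS3, ALDH1A1, CYP26A1 and CYP26B1. They were selected on their transcript levels in the same pair of libraries, so the differences below are a description and no test is made of them. RNA came from Huh7, an established human hepatocellular carcinoma line, kept for 6 days in medium with glucose at 4.5 g/L (high glucose) or at 0.45 g/L (low glucose). In both media only live cells were reseeded at passage, so cells that had died by then were not carried on. Whether cells that died after the last passage were sampled was not determined. Each medium is represented by 1 library, which leaves no spread between cultures to compare a difference with.

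Values are TPM, a unit of abundance scaled by transcript length and to the same total in each library, so levels of different genes can be set side by side. The number of reads was not determined, so no counting error can be given, and it matters most for the genes near 1 TPM. Each difference was taken on log2(TPM + 1) as the low glucose value minus the high glucose value, and this scale shrinks differences where levels are low. A gene passed the 2-fold rule where its difference reached 1 or -1, provided that its mean over both libraries was 1 TPM or more. Of 13745 genes at that level, 502 (3.65%) passed the rule upward in low glucose and 151 (1.10%) passed it downward, and the median difference was 0.05. The RNA is bulk RNA, in which fewer cells with a transcript and less of it per cell cannot be told apart.

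All 9 hepatocyte markers examined were at the level compared and none was past the rule, with 6 below 0 and a median difference of -0.31. The most abundant were AFP at 20859 and 16441 TPM and ALB at 8528 and 7997 TPM (here and below, high glucose is given first). Markers of stellate cells and fibroblasts, the vitamin A storing and matrix cells of liver, summed to 34.9 and 45.0 TPM over 10 genes, against 43275 and 38490 TPM for the hepatocyte markers. Of these 10, 5 were at the level compared, with 4 above 0, 1 below and a median difference of 0.34. COL1A1, at 1.06 and 4.03 TPM, was the 1 such marker past the rule, beside 3.65% of all genes upward. COL1A2 (18.71 and 24.55 TPM) and PDGFRB (8.12 and 8.82 TPM) were the most abundant of them. The defining stellate genes LRAT (0.11 and 0.21 TPM) and DES (0.08 and 0 TPM) were near 0, and markers of endothelial and blood cells summed to 26.5 and 44.3 TPM over 9 genes, of which CD68 gave 20.4 and 39.3 TPM. The part of these marker genes in the differences below was not tested.

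CYP26A1, the main retinoic acid hydroxylase of liver, was far higher in low glucose, and DHRS3, which reduces retinaldehyde back to retinol, was also more than 2-fold higher. ALDH1A1 and RDH10, enzymes of the oxidative steps toward retinoic acid, were lower by less than 2-fold. The carrier RBP4, the reductase RDH11, the hydroxylase CYP26B1 and the binding protein CRABP2 were closer to level, and the retinol receptor STRA6 was listed at 0 in both libraries. Of the 9 genes, 8 were at the level compared, 2 were past the rule upward and 0 downward, beside 3.65% and 1.10% of all genes. Because the genes were selected on these same differences, nothing is read from that share. The median difference of the 8 was 0.18, with 5 above 0 and 3 below.

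**Figure D1:**
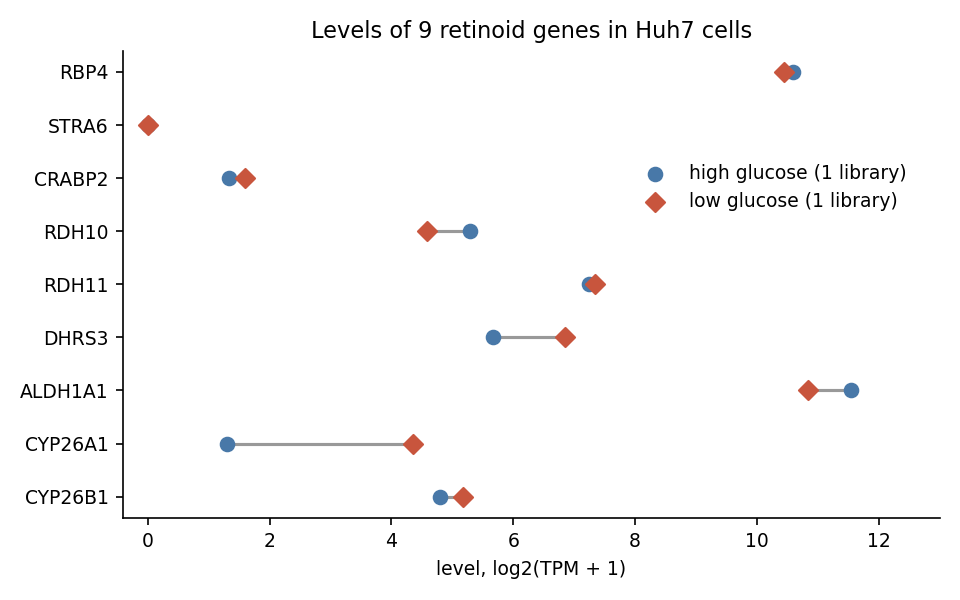
Levels of the 9 genes as log2(TPM + 1) on the horizontal axis, with 1 circle for the high glucose library and 1 diamond for the low glucose library per gene. CYP26A1 moves up from near the bottom of the scale (1.47 to 19.35 TPM), DHRS3 also moves up, and RDH10 and ALDH1A1 move down.

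CYP26A1 (chromosome 10, 94833232 to 94837641, hg19, the interval of the whole gene) gave 1.47 TPM in the high glucose library and 19.35 TPM in the low glucose library. The ratio of TPM was 13.2 and the log2 difference 3.04, which placed it 11th from the top among the 13745 genes compared. Its value in high glucose is close to that of CRABP2, so the size of the ratio rests on a low level of unknown read support. With a pseudocount of 5, which discounts low levels, the difference was 1.91, and with a pseudocount of 0.1 it was 3.63. Among genes of the cytochrome P450 superfamily, 26 of 55 found were at the level compared. CYP26A1 was the 1 of these past the rule, beside 3.65% of all genes upward and 1.10% downward. It was selected on this same difference, so nothing is read from that count. The next by difference was CYP4F3, an eicosanoid hydroxylase gene, at 28.5 and 57.6 TPM (0.99). The median of the 26 was 0.34.

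**Figure D2:**
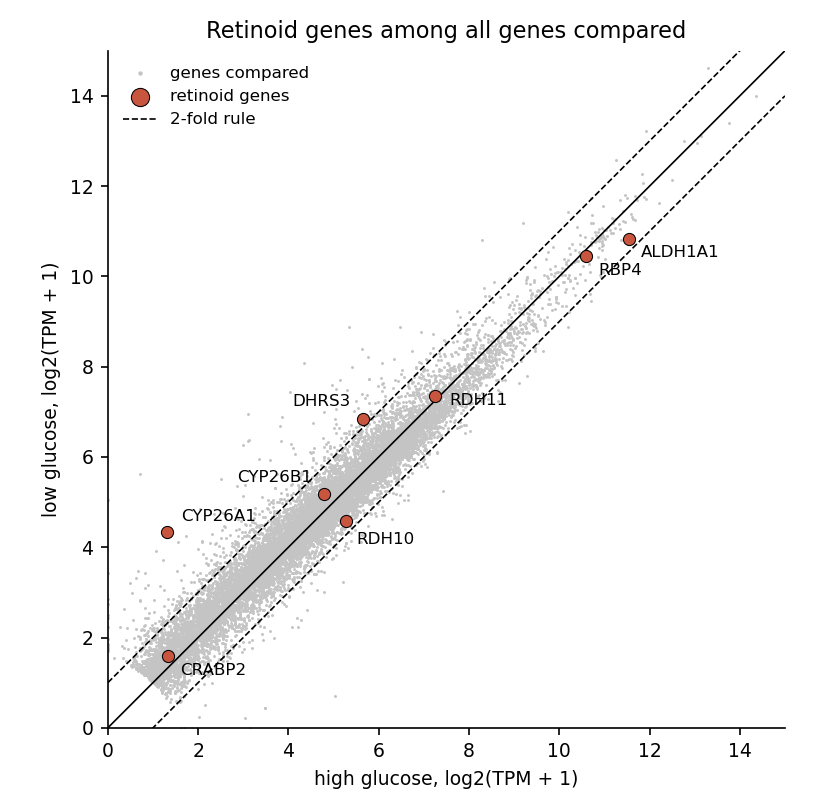
Level of each gene compared in low glucose (vertical) against high glucose (horizontal), both as log2(TPM + 1), with 1 grey point per gene and the 8 retinoid genes at that level in red. The solid line marks equal levels and the dashed lines the 2-fold rule. CYP26A1 lies far above the upper dashed line (3.04) and DHRS3 just above it (1.19).

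The promoter of CYP26A1 is shown because it carries the kind of site through which retinoic acid receptors act. RefSeq promoter windows (build GRCh38.p14, 250 bases before a transcript start and 50 after it) were matched by symbol for 8 of the 9 genes, with RDH10 the gene not matched. They were searched on both strands for direct repeats of the hexamers AGGTCA or AGTTCA or GGGTCA or GGTTCA, in any pairing and without overlap, with 5 bases between them. Such a repeat was found in 31 of 35116 windows (0.0883%). Of the 17 windows of the 8 genes, 1 held it, the downstream of the pair of CYP26A1 windows. Of 95 windows of 65 other pathway genes, 1 held it. It was 1 of the 4 windows of RARB, which encodes the retinoic acid receptor beta. The repeats lay at -90 to -74 in CYP26A1 and at -53 to -37 in RARB, counted from the transcript start. The 150 bases before each start are printed 5′ to 3′ on the strand of the gene, with the paired hexamers in capitals, from chr10:93073743-93073892 (plus strand) for CYP26A1 and from chr3:25428113-25428262 (plus strand) for RARB.
CYP26A1: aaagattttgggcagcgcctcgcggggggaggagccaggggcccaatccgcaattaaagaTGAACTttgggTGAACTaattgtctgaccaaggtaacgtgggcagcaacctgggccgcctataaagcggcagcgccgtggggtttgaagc
RARB: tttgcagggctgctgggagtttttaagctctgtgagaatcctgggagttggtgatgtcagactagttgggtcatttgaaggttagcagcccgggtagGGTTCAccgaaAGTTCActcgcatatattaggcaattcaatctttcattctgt

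In CYP26A1 the repeat runs on the opposite strand, where it reads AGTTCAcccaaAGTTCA, and in RARB it reads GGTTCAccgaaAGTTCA. Counted from the first base of the repeat, CYP26A1 to RARB, these 17 bases differ by A1G and C9G. RARB gave 6.44 and 8.38 TPM (0.33), a level given for the whole gene and not for the transcript start shown. Of the genes with such a window, 9 were at the level compared, with a median difference of 0.15. Only CYP26A1 of these 9 was past the rule, beside 3.65% of all genes upward, and the next by difference was CFLAR (0.38). Because CYP26A1 was selected on its difference, nothing is read from that count about the repeat. Repeats spaced by 2 bases were in 0.0399% of all windows and those spaced by 1 base in 0.131%, and none of the 17 windows of the 8 genes held either. DHRS3, the other gene past the rule, had 3 windows and none of these repeats in them.

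CYP26B1 (chromosome 2, 72356367 to 72374991), the second retinoic acid hydroxylase, gave 26.7 and 35.25 TPM (0.39). CYP26C1, the remaining member of the family and the gene next to CYP26A1 on chromosome 10, stood at 0.11 and 0.47 TPM, below the level compared. Summed over the family, CYP26 transcripts came to 28.3 and 55.1 TPM, a ratio of 1.95. CYP26A1 made up 5.19% of that sum in high and 35.1% in low glucose. CYP26B1 was the more abundant in both libraries, by 18.2 times in high and 1.82 times in low glucose.

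**Figure D3:**
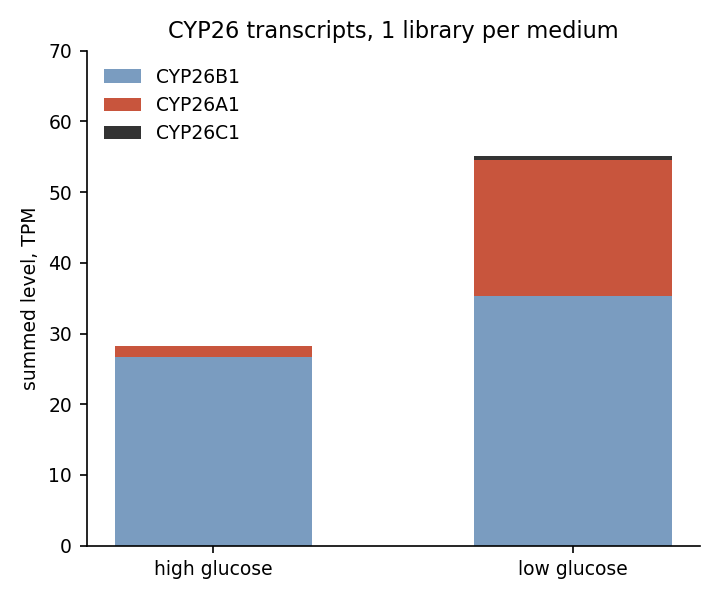
Stacked bars of the TPM of CYP26B1, CYP26A1 and CYP26C1 in the high and the low glucose library, 1 library each, without error bars. The total is 28.3 TPM on the left and 55.1 TPM on the right, and most of the added height is CYP26A1.

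Of the enzymes that set retinaldehyde, DHRS3 and RDH10 differed in opposite directions. DHRS3 (chromosome 1, 12627939 to 12677737) is a membrane reductase that returns retinaldehyde to retinol and is itself known to be induced by retinoic acid. Its level was 49.7 TPM in the high glucose library and 114 TPM in the low glucose library, a ratio of 2.30 and a difference of 1.19. RDH10 (chromosome 8, 74206837 to 74237520), the dehydrogenase that makes retinaldehyde from retinol and forms a complex with DHRS3, went the other way, with 38.0 and 23.05 TPM (-0.70). The ratio of DHRS3 to RDH10, computed after both values had been seen, was 1.31 in high and 4.96 in low glucose. RDH11 (chromosome 14, 68143519 to 68162510), a second reductase of retinaldehyde, was the most abundant of these 3 enzymes and nearly level, at 150.4 and 161 TPM (0.10).

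ALDH1A1 (chromosome 9, 75515578 to 75568233), which oxidises retinaldehyde to retinoic acid as well as other aldehydes, was the most abundant of the 9 genes in both libraries. It gave 2974 TPM with high glucose and 1832 TPM with low glucose, a difference of -0.70. Among all 25343 entries it ranked 20th by level in high and 64th in low glucose. The other dehydrogenases of this step were low: ALDH1A2 stood at 0.12 and 0.06 TPM, ALDH1A3 was listed at 0, and ALDH8A1, which acts on the 9-cis form, stood at 7.0 and 7.60 TPM. ALDH1A1 therefore held 99.8% of the summed TPM of these 4 genes in high and 99.6% in low glucose.

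RBP4 (chromosome 10, 95351593 to 95360993), the secreted carrier of retinol, was nearly level at 1541 and 1396 TPM (-0.14). Its partner in blood, transthyretin (TTR), stood at 1351 and 682 TPM (-0.99), just short of the rule, which it passed under 2 of 4 other scalings of the libraries. The ratio of RBP4 to TTR was thus 1.14 in high and 2.05 in low glucose. STRA6 (chromosome 15, 74471808 to 74502046), the receptor that takes up retinol from RBP4, was listed at 0 TPM in both. CRABP2 (chromosome 1, 156669400 to 156675608), which hands retinoic acid to its receptor, stood at 1.52 and 2.01 TPM (0.26), and its relative CRABP1 was listed at 0 in both.

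In order of level, ALDH1A1, RBP4, RDH11 and DHRS3 led in that order in both libraries. Below them the order in high glucose was RDH10, CYP26B1, CRABP2 and CYP26A1, and in low glucose CYP26B1, RDH10, CYP26A1 and CRABP2, with STRA6 last in both. With 1 library each there is no spread by which neighbours in this order could be separated. RBP4 and ALDH1A1 together held 94.4% of the summed TPM of the 9 genes in high and 90.1% in low glucose.

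The rest of the pathway was examined through 9 lists that hold 89 measured genes, of which 62 were at the level compared. In low glucose 2 of the 62 (3.23%) were past the rule upward, beside 3.65% of all genes. Past the rule downward were 4 (6.45%), beside 1.10% of all genes, and their differences all lay between -1.07 and -1.01. The median over the 62 was -0.11, with 26 above 0 and 36 below, against a median of 0.05 over all genes.

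**Figure D4:**
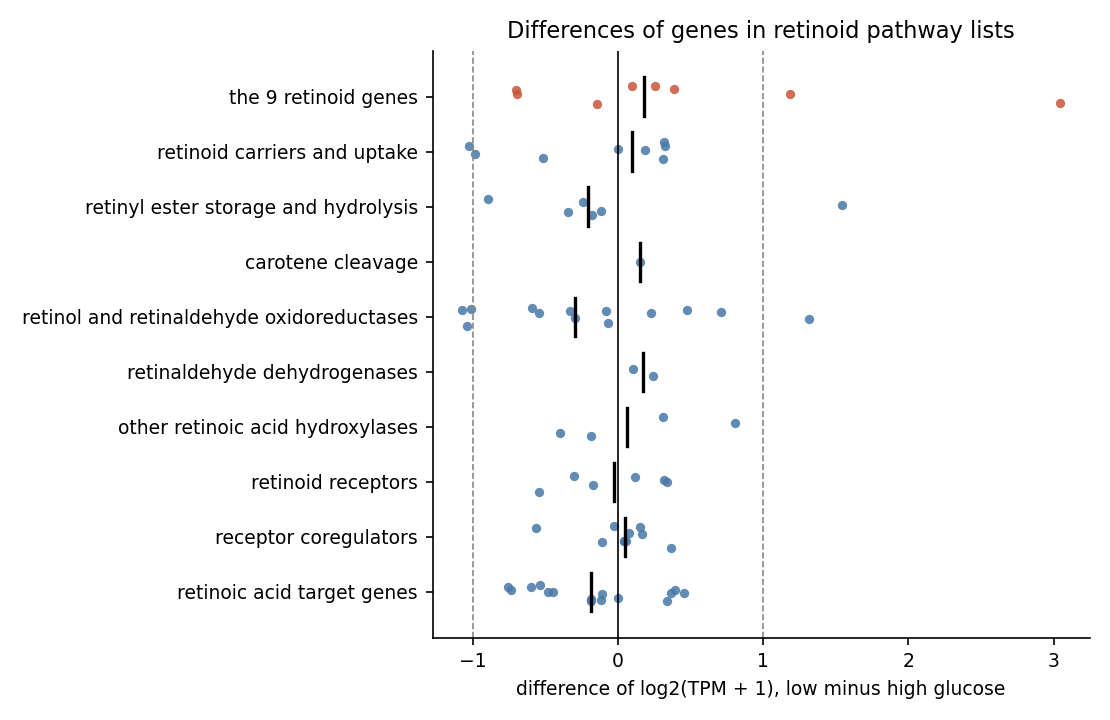
Low glucose minus high glucose on the log2(TPM + 1) scale, for each gene compared on 9 pathway lists (blue) and for the retinoid genes described here (red), with 1 point per gene and a black bar at the median of each list. Dashed lines mark the 2-fold rule. Receptors, coregulators and retinoic acid target genes all lie within the dashed lines.

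Among carriers and uptake proteins, 8 of 11 were compared and 1 was past the rule downward, beside 1.10% of all genes. This was FABP5 (569 and 279 TPM, -1.03), a fatty acid binding protein that can also bind retinoic acid and whose many processed copies in the genome can share its reads. SCARB1, a lipoprotein receptor that also takes up carotenoids, stood at 269 and 336 TPM. Genes of retinyl ester storage and hydrolysis had 1 of 6 past the rule upward, beside 3.65% of all genes. It was CES1, a liver carboxylesterase, at 45.4 and 134 TPM (1.55), whose separate level from its near-identical pseudogene is uncertain. DGAT2 (87.0 and 73.6 TPM) and DGAT1 (68.9 and 60.8 TPM), acyltransferases that can esterify retinol, were the list's other abundant genes. The carotene cleavage enzyme BCO2 stood at 1.30 and 1.55 TPM, and BCMO1 at 0 and 0.04 TPM.

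Among the other oxidoreductases of retinol and retinaldehyde, 13 of 19 were compared, with 1 past the rule upward and 3 downward. Over all genes the shares were 3.65% upward and 1.10% downward. AKR1B10, a reductase of retinaldehyde and other aldehydes, stood at 15.99 and 41.3 TPM (1.32), while its relative AKR1B1 stood at 116 and 57.4 TPM (-1.01). The alcohol dehydrogenase genes ADH6 (27.45 and 12.9 TPM, -1.04) and ADH1B (3.79 and 1.28 TPM, -1.07) were lower. ADH1B has near-identical neighbours, ADH1A and ADH1C, that can share its reads. The most abundant were ADH5 (203 and 134 TPM) and DHRS7 (169.7 and 199 TPM). Calls this close to the rule were not stable: FABP5 and AKR1B1 missed it when the total was taken without the 50 most abundant genes, and ADH1B, ADH6 and AKR1B1 missed it with a pseudocount of 5.

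The list of other retinoic acid hydroxylases, CYP26C1 and less specific enzymes of the CYP2 and CYP3A families, had 4 of 6 compared and none past the rule. Its most abundant members were CYP3A5 (7.48 and 9.50 TPM) and CYP2S1 (4.86 and 9.22 TPM). ALDH8A1 and AOX1 (1.0 and 1.36 TPM) were the retinaldehyde oxidising genes compared beside ALDH1A1.

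None of 6 retinoid receptor genes compared was past the rule. RARA stood at 16.9 and 21.3 TPM, and RARG at 2.20 and 1.59 TPM. Together with RARB, the RAR genes summed to 25.5 and 31.3 TPM. Among their RXR partners, RXRA stood at 61.5 and 41.8 TPM (-0.55), RXRB at 25.7 and 28.0 TPM, and RXRG was listed at 0 in both. PPARD, a fatty acid receptor that also pairs with RXR, stood at 17.7 and 15.6 TPM. All 10 coregulator genes were within 2-fold, with NCOR1, a corepressor, at 61.97 and 65.3 TPM and HDAC3, a deacetylase of its complex, at 73.2 and 49.1 TPM.

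Of 23 further genes known as retinoic acid targets in other cells, 15 were compared and none was past the rule. Their median difference was -0.19, with 4 above 0 and 11 below. TGM2, a transglutaminase, stood at 101 and 69.6 TPM, and FOXA1, a liver transcription factor, at 72.3 and 43.1 TPM.

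By position, CYP26A1 and RBP4 lie 514 kb apart on chromosome 10, with log2 differences of 3.04 and -0.14. Within 500 kb of CYP26A1, 6 other genes were compared, and their median difference was -0.25. The nearest on the side of higher coordinates, MYOF, a membrane repair gene, was the 1 of these past the rule, at 3.41 and 8.76 TPM (1.15). Of all genes, 3.65% were past the rule upward. The genes whose pair of levels lay nearest to that of CYP26A1 over these 2 libraries were FOS (1.92 and 16.5 TPM), an immediate early transcription factor, F2RL2 (2.32 and 18.03 TPM), a thrombin receptor, and KLHDC7B (1.09 and 14.1 TPM). Their distances in log2(TPM + 1) were 0.33, 0.44 and 0.50.

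The differences of the 8 genes were recomputed under 4 other scalings of the libraries and pseudocounts of 0.1 and 5. Each kept its sign and its side of the rule under all 6. DHRS3 ranged from 1.12 to 1.21, RDH10 from -0.75 to -0.62 and ALDH1A1 from -0.76 to -0.67. The nearly level RDH11 ranged from 0.04 to 0.13 and CRABP2 from 0.10 to 0.38.

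**Figure D5:**
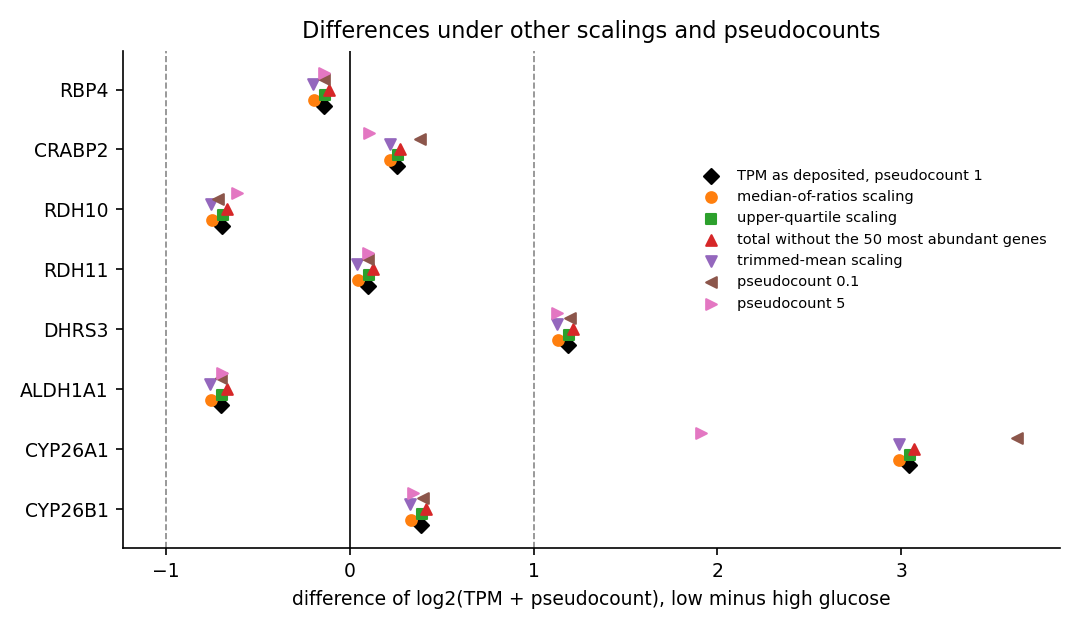
Difference of log2(TPM + pseudocount), low minus high glucose, for each of the 8 genes compared, with 1 marker per scaling or pseudocount and dashed lines at the 2-fold rule. CYP26A1 spreads from 1.91 to 3.63 with the pseudocount, and each of the other genes stays in a narrow band on 1 side of 0.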

How the data were processed

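RNA from Huh7 cells in 2 media was analysed, with 1 library per medium, grouped by the treatment label. The authors deposited TPM per gene, named so per the file headers, with 2 decimals, a symbol and an interval per entry. The submitters' processing notes name cutadapt, RSEM 1.2.21 (which divides reads shared between genes) and hg19. No aligner, annotation or strand setting is given in the sources used here. Coordinates of genes are the authors' hg19 intervals. Depth was not determined.

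Genes with a mean of at least 1 TPM were compared by log2(TPM + 1), low minus high glucose, with a 2-fold rule and no test. The 9 genes, the pathway and marker lists and the rules were chosen with earlier results of these data known. Named are the 9 genes, the receptors, list genes past the rule, the 2 most abundant genes of each pathway list, a few defining genes of each marker list, the neighbours of CYP26A1 and the 3 genes nearest to it in level; other names, and all ratios between genes, were chosen after values were seen. The values of some list genes are not reported here. Symbols matched 89 of 90 listed pathway genes (BCMO1 and BCO1 are names of the same gene). For neighbours, 96 entries with an interval above 2500 kb were set aside. Promoter sequences are RefSeq's on GRCh38.p14. The procedure was tested on simulated data built from genes with a mean of at least 10 TPM. The simulation does not cover genes with means near 1 TPM, and its noise was set, not taken from cultures. Calculations used Python 3.11.15, pandas 2.3.3 and numpy 2.4.6. Alternatives were 4 scalings, 2 pseudocounts, 2 filters and 2 thresholds.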

Additional observations from a re-analysis of the deposited data

How the results depend on the processing

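The sign of all 8 differences held under the 4 scalings and the 2 pseudocounts, and across the scalings the median over all genes lay from -0.0032 to 0.0759. With a 1.5-fold threshold, 2 of the 9 genes (RDH10 and ALDH1A1) counted as lower, and with a 3-fold threshold 1 (CYP26A1) counted as higher. Other pathway genes counted as lower numbered 2 with the total taken without the 50 most abundant genes, 1 with a pseudocount of 5, 10 at 1.5-fold and 0 at 3-fold; those counted as higher numbered 4 at 1.5-fold and 0 at 3-fold. Over all genes, 234 were higher and 79 lower with a pseudocount of 5, 293 were higher among genes of at least 10 TPM, 1786 and 835 were past 1.5-fold, and 119 and 22 past 3-fold. By construction, fewer genes pass a stricter threshold or filter or a larger pseudocount, and more pass a looser threshold. Taking the total without the 50 most abundant genes divides the low glucose library by 0.98. This raises the difference of each gene detected in low glucose, also by construction. With 1 library per medium, variation between cultures and the effect of glucose cannot be told apart, no replicate could be left out, and the reads behind values near 1 TPM, such as CYP26A1 in high glucose, are unknown. No paired analysis was possible because each medium has 1 library.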
